A study of Mus musculus with 27 samples.

Results

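The genes of monoamine and acetylcholine signalling were followed in the whole brains of 2 inbred mouse strains. A list of 34 genes covered synthesis, vesicle loading, reuptake, breakdown and receptors. All probe sets annotated to a listed gene were taken, which gave 27 of 12488 probe sets and 22 of the 8252 genes named on these arrays. The other 12 genes (Dbh, Slc18a2, Drd1, Drd5, Htr2a, Tph2, Maob, Chat, Chrna4, Chrm2, Chrm3 and Adra2a) were not analysed here.

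The groups were 4 DBA animals, labelled DBA/2J, and 5 C57 animals, labelled C57BL/2, each with 1 array. All were untreated and 10 weeks of age. The C57 animals are labelled male, while no sex is stated for DBA, so a difference of sex, if there was one, cannot be told apart from strain. The arrays measured total RNA of a homogenized brain, in which fewer cells of a type and less RNA per cell cannot be told apart.

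Monoamine neurons are few and lie mostly in the midbrain and brainstem, from where their axons reach nearly all of the forebrain. They make dopamine, noradrenaline or serotonin, load it into vesicles, take it back up after release and break it down by oxidation. Acetylcholine is made by basal forebrain, striatal and motor neurons and is cleared by hydrolysis in the synapse. Most receptors for these transmitters couple to G proteins, while nicotinic receptors and one class of serotonin receptor are ion channels.

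The values are deposited intensities on a linear scale, scaled to a common level on every array. The median intensity per array ran from 168 to 188 in DBA and from 160 to 198 in C57. Levels of different probe sets cannot be set against each other, since each binds with its own strength. Neuronal Snap25 ran from 15350 to 21136 in DBA and from 14793 to 18630 in C57. Of the neuron markers 0 of 9 tested sets passed (median log2 difference 0.02). Among them 1 had an unadjusted p under 0.05, that of Map2 (0.53 ± 0.20). Of the astrocyte markers 0 of 11 tested sets passed (median log2 difference -0.11), and the Gfap sets differed by -0.28 ± 0.15 (94144_g_at) and 0.20 ± 0.17 (94143_at). At an unadjusted p under 0.05 there were 2 astrocyte sets, Glul at 94852_at (-0.54 ± 0.16) and Slc1a2 (0.34 ± 0.12). The other Glul set differed by -0.01 ± 0.22. Oligodendrocyte Mbp (96311_at) ran from 8180 to 10606 in DBA and from 9178 to 11954 in C57. Of the marker lists, that of oligodendrocytes had 1 of 11 tested sets past the threshold, with a median log2 difference of -0.35 and a summed intensity of 30032 to 35522 in DBA and 31434 to 44536 in C57. The set past it was 99046_at of Mobp (-0.84 ± 0.12, limma adjusted p = 0.00416). At an unadjusted p under 0.05 there were 5 of the 11, beside 12.2% of all tested sets. These sets, of Mobp, Mog, Mag and Cldn11, were all lower in DBA, while the other Mag set was not (0.29 ± 0.18). The part of oligodendrocytes in the results below was not tested. The array of DBA animal 3 stood apart by a Gapdh control set with the suffix st, which read 786 there, against 51.8 to 93.8 on the other DBA arrays and 17.1 to 91.8 on the C57 arrays.

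A probe set was tested when its geometric mean over the 9 animals reached 35.4, the limit that left out the dimmest 25%. By this limit 20 probe sets of 18 genes were tested. The other 7 sets lay below it, among them all sets of Drd3, Tph1, Slc18a3 and Chrnb2. Strains were compared as DBA minus C57 on the log2 scale by limma, with p adjusted over all 9316 tested sets and ± giving the standard error. Across all tested sets 2.50% passed an adjusted p under 0.05 in either direction. Of the monoamine and acetylcholine sets 0 of 20 passed, with 0 higher in DBA (0.891% of all tested sets) and 0 lower (1.61% of all), and their adjusted p ran from 0.158 to 0.993. At an unadjusted p under 0.05, 2 of the 20 passed (Chrm4 and Htr1a), beside 12.2% of all tested sets. The strains overlapped at each of the 20 sets, while 6.45% of all tested sets showed no overlap. The median log2 difference was 0.05 over the 20 sets and 0.01 over all tested sets, and the median size without sign was 0.16 over the 20 sets and 0.15 over all. At 16 of the 20 sets the 95% interval of the difference lay within a 2-fold change either way. The 4 sets whose intervals reached past 2-fold were 99408_at of Slc6a2, 97787_at of Slc6a3, 99040_at of Slc6a4 and 101821_at of Chrm4.

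**Figure D1:**
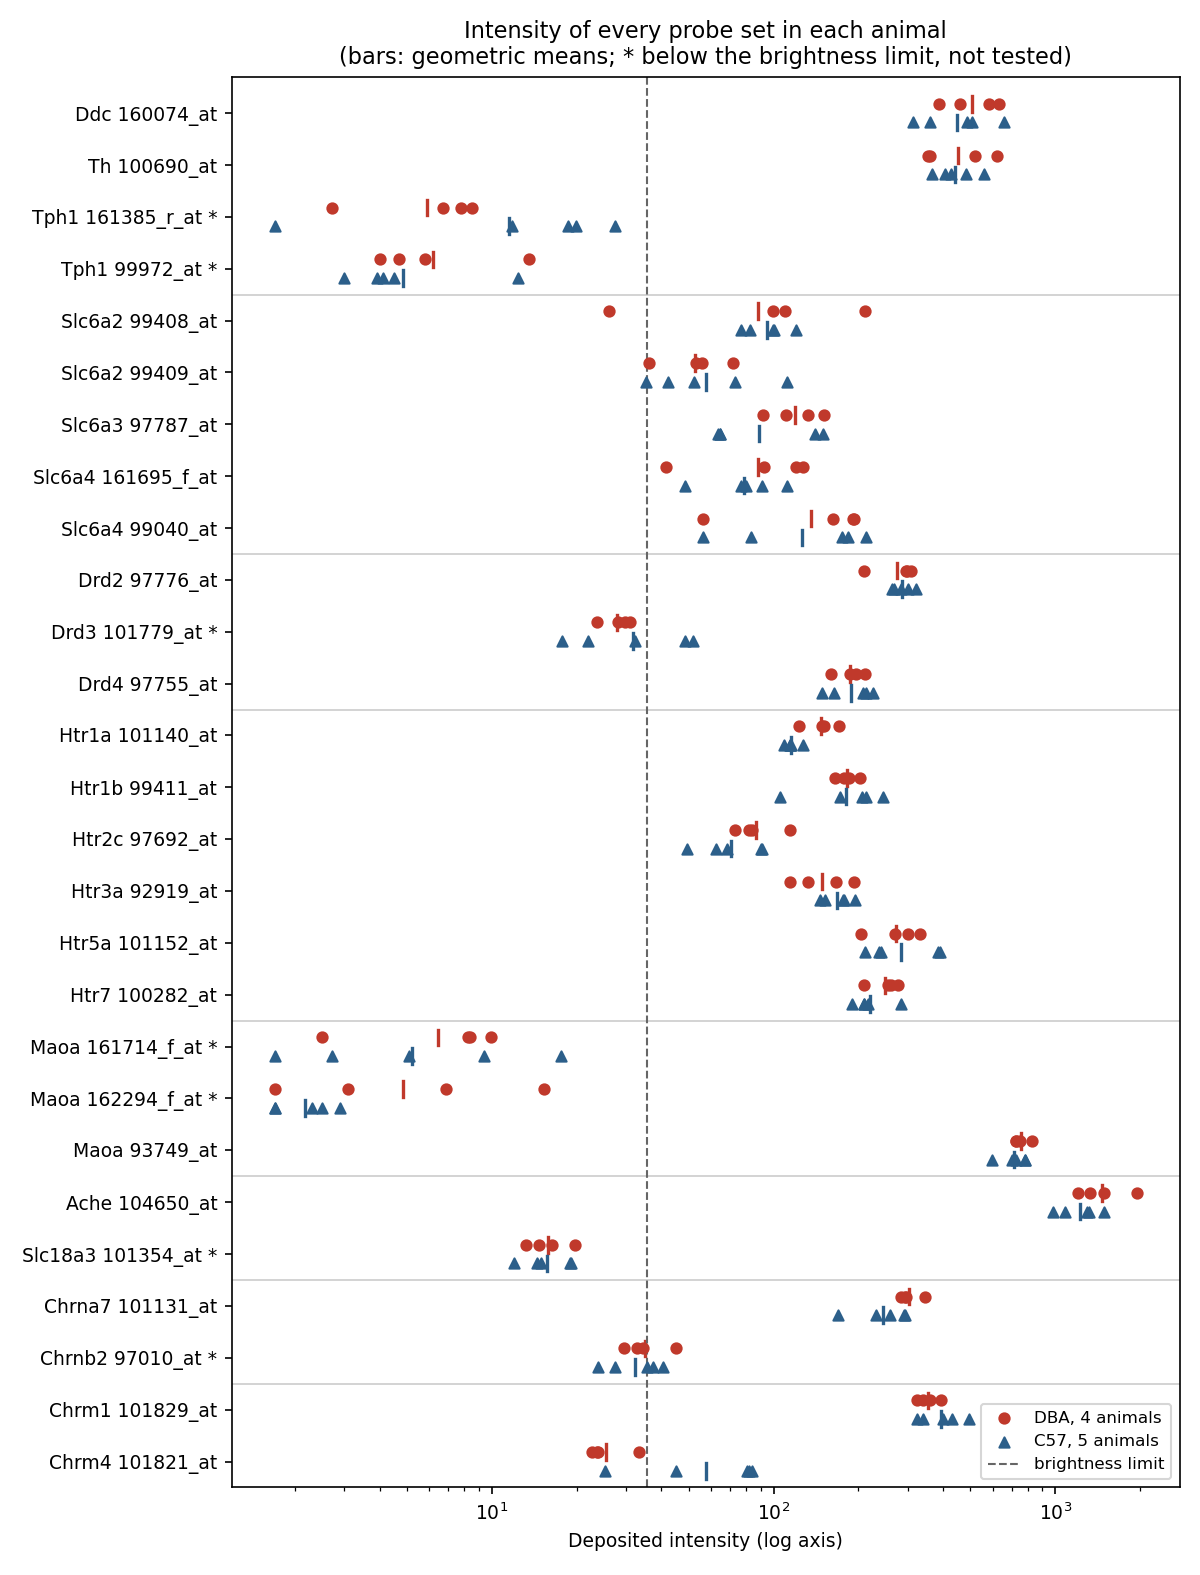
Deposited intensity (log axis) of all 27 probe sets in each animal, grouped by role, with DBA as circles above C57 as triangles and bars for geometric means. Values below 1.7 are drawn at 1.7. The strains overlap at all 20 tested sets, and the 7 sets with an asterisk have geometric means below the dashed limit of 35.4.

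Transmitter synthesis was measured by Th and Ddc. Th encodes tyrosine hydroxylase, the rate-limiting enzyme of dopamine and noradrenaline synthesis. Its set 100690_at read 520, 624, 359 and 354 in DBA animals 1 to 4, and 406, 426, 365, 560 and 482 in C57 animals 1 to 5. Each strain held both high and low animals, with means of 464 ± 131 in DBA (SD, n = 4) and 447 ± 75.6 in C57 (SD, n = 5). The log2 difference of Th was 0.03 ± 0.20 (95% interval -0.42 to 0.47, adjusted p = 0.979). Ddc encodes aromatic amino acid decarboxylase, which makes the last step to dopamine and to serotonin. Its set 160074_at read 629, 459, 388 and 582 in DBA animals 1 to 4, and 313, 359, 656, 486 and 505 in C57 animals 1 to 5. The lowest animals were DBA 3, C57 1 and C57 2, and the strains overlapped along most of their range. The log2 difference of Ddc was 0.17 ± 0.23 (95% interval -0.34 to 0.69, adjusted p = 0.849), and with 1 animal left out it ran from 0.04 to 0.31. Tph1, the tryptophan hydroxylase of the pineal gland and of peripheral tissues, lay below the brightness limit in all 9 animals. Its set 99972_at ran from 4.0 to 13.5 in DBA and from 3.0 to 12.4 in C57, and its set 161385_r_at from 2.7 to 8.5 in DBA and from 1.5 to 27.4 in C57.

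Reuptake was measured by the plasma membrane transporters of serotonin, dopamine and noradrenaline, which end the signal by returning the transmitter to the neuron. The serotonin transporter gene Slc6a4 read 194, 163, 56.0 and 191 at 99040_at in DBA animals 1 to 4, and 83.2, 56.3, 213, 175 and 183 in C57 animals 1 to 5. In each strain some animals were about as low as 56 and others were above 160, so the spread lay within the strains. The log2 difference was 0.10 ± 0.49 (95% interval -0.99 to 1.19, adjusted p = 0.961), and without DBA animal 3 it was 0.53. The other Slc6a4 set, 161695_f_at, had its lowest DBA value, 41.7, in animal 1 and its lowest C57 value, 48.7, in animal 2, and differed by 0.16 ± 0.34 (adjusted p = 0.915). Sets with this suffix can match families of similar sequences.

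The dopamine transporter gene Slc6a3 read 92.1, 151, 132 and 110 in DBA animals 1 to 4, and 64.8, 140, 64.7, 63.4 and 150 in C57 animals 1 to 5. C57 animals 2 and 5 lay within the DBA range, and the other C57 animals lay below all DBA animals. The log2 difference was 0.42 ± 0.31 (95% interval -0.27 to 1.12, adjusted p = 0.676), which reaches from a lower level in DBA to one more than 2-fold higher. The noradrenaline transporter gene Slc6a2 spread most in DBA at 99408_at, from 26.0 in animal 1 to 212 in animal 3, against 76.4 to 120 in C57. At 99409_at it ran from 36.1 to 71.9 in DBA and from 35.3 to 111 in C57. The log2 differences of the Slc6a2 sets were -0.10 ± 0.49 and -0.13 ± 0.33 (adjusted p = 0.962 and 0.927). Without DBA animal 1 that of 99408_at was 0.49.

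Maoa encodes the monoamine oxidase that prefers serotonin and noradrenaline. Its set 93749_at read 825, 727, 748 and 727 in DBA animals 1 to 4, and 726, 781, 784, 596 and 701 in C57 animals 1 to 5. Apart from C57 animal 4 the animals lay close together, and the log2 difference of 0.08 ± 0.11 had the narrowest of the 20 intervals (-0.17 to 0.33, adjusted p = 0.851). The other Maoa sets, 161714_f_at and 162294_f_at, read at most 17.6 in any animal and were not tested.

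**Figure D2:**
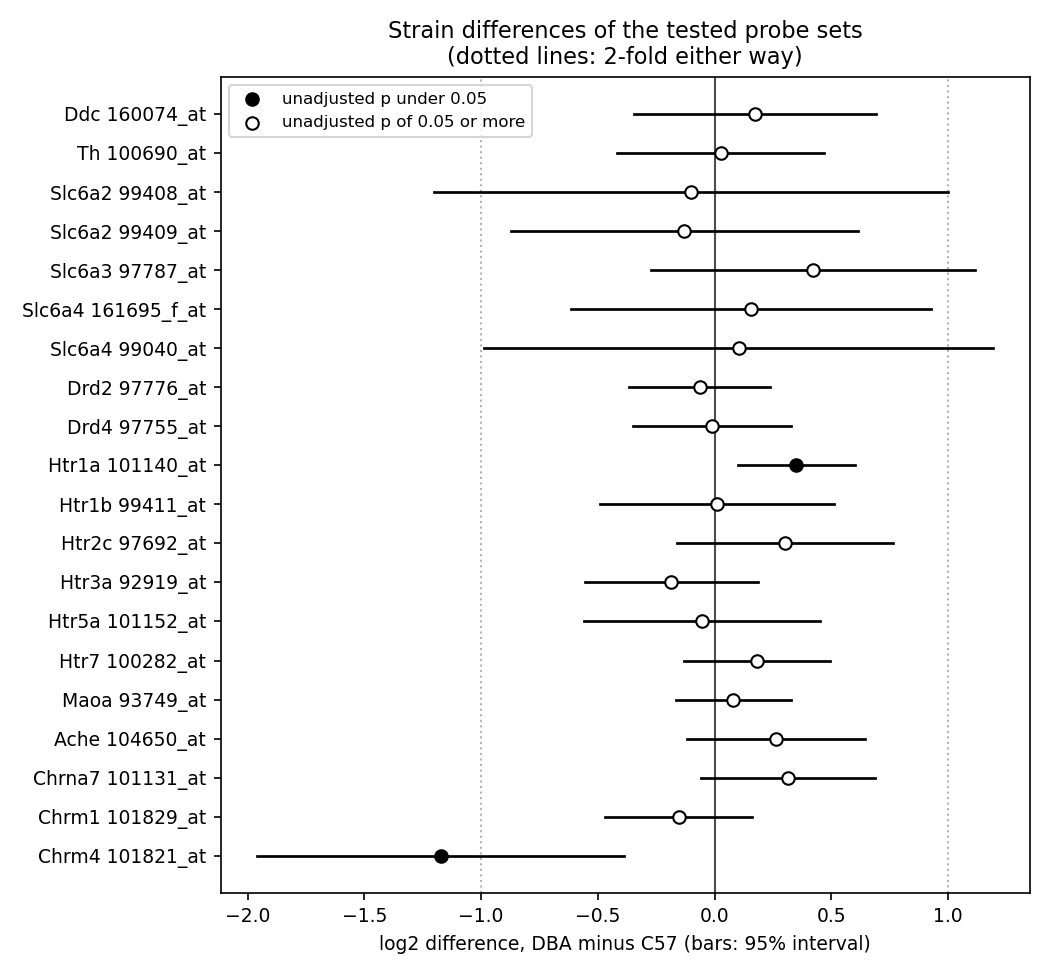
Log2 differences (DBA minus C57) of the 20 tested probe sets, grouped by role, with 95% intervals as bars and dotted lines at a 2-fold change either way. Filled points have an unadjusted p under 0.05, which was the case for Htr1a (0.35) and Chrm4 (-1.17).

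Among the dopamine receptors, Drd2 encodes the inhibitory receptor that is both an autoreceptor and a striatal target of antipsychotic drugs. Its set 97776_at read 209, 294, 297 and 308 in DBA animals 1 to 4, and 268, 300, 264, 320 and 284 in C57 animals 1 to 5. DBA animal 1 was below all others, which lay between 264 and 320. The log2 difference was -0.06 ± 0.14 (95% interval -0.37 to 0.24, adjusted p = 0.911), and 0.07 without DBA animal 1. Drd4, an inhibitory receptor of the cortex and retina, ran from 160 to 211 in DBA and from 149 to 225 in C57, with a log2 difference of -0.01 ± 0.15 (adjusted p = 0.987). Drd3, an inhibitory receptor of the limbic striatum, averaged 28.1 ± 3.16 in DBA (SD, n = 4) and 34.4 ± 15.3 in C57 (SD, n = 5). Drd3 was below the brightness limit and was not tested.

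Among the serotonin receptors, Htr1a encodes an inhibitory receptor found on serotonin neurons themselves and in the hippocampus. Its set 101140_at read 151, 171, 124 and 149 in DBA animals 1 to 4, and 109, 116, 114, 127 and 114 in C57 animals 1 to 5. All DBA animals but DBA 3 were above all C57 animals, and DBA 3 was below C57 4 alone. Htr1a was 1.27-fold higher in DBA by the geometric means, with a log2 difference of 0.35 ± 0.11 (95% interval 0.10 to 0.60). Its unadjusted p was 0.0114 and its adjusted p was 0.198, so it did not pass. With 1 animal left out or another setting the adjusted p lay between 0.0906 (without DBA animal 3) and 0.544. Htr5a, a receptor that inhibits adenylyl cyclase, read 205, 301, 269 and 331 in DBA animals 1 to 4, and 383, 240, 391, 236 and 212 in C57 animals 1 to 5. C57 animals 1 and 3 were the highest and C57 animal 5 was near the lowest DBA animal, and the log2 difference was -0.05 ± 0.23 (adjusted p = 0.955).

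The other serotonin receptors gave log2 differences between -0.18 and 0.30. Htr2c, which is abundant in choroid plexus as well as in neurons, ran from 73.1 to 114 in DBA and from 49.5 to 91.0 in C57 (0.30 ± 0.21, adjusted p = 0.650). Of the choroid plexus markers 0 of 3 tested sets passed (median log2 difference 0.46). Their summed intensity over 6 probe sets, most of it from Ttr, was 3479 to 4741 in DBA and 1180 to 3631 in C57. Ttr, the main transcript of that tissue, had a log2 difference of 0.85 ± 0.30 (adjusted p = 0.257). The part of this tissue in the Htr2c values was not tested. Htr7, which stimulates adenylyl cyclase, ran from 209 to 277 in DBA and from 190 to 283 in C57 (0.18 ± 0.14, adjusted p = 0.693). Htr1b, the receptor on axon terminals, ran from 165 to 203 in DBA and from 105 to 244 in C57 (0.01 ± 0.22, adjusted p = 0.993). Htr3a, the ion channel among them, ran from 114 to 194 in DBA and from 146 to 195 in C57 (-0.18 ± 0.17, adjusted p = 0.756).

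On the cholinergic side, Ache encodes acetylcholinesterase, which hydrolyses the transmitter in the synapse. Its set 104650_at read 1485, 1201, 1946 and 1328 in DBA animals 1 to 4, and 984, 1084, 1315, 1487 and 1296 in C57 animals 1 to 5. DBA animal 3 was the highest, and the other DBA animals lay within the C57 range. The log2 difference was 0.26 ± 0.17 (95% interval -0.12 to 0.65, adjusted p = 0.622). Slc18a3, which loads acetylcholine into vesicles, averaged 16.0 ± 2.79 in DBA (SD, n = 4) and 15.9 ± 3.08 in C57 (SD, n = 5), and was not tested.

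Of the nicotinic subunits, Chrna7 forms channels by itself. It read 295, 344, 282 and 294 in DBA animals 1 to 4, and 289, 259, 292, 169 and 232 in C57 animals 1 to 5. The strains met between 282 and 292, with C57 animal 4 the lowest. The log2 difference was 0.31 ± 0.17 (95% interval -0.06 to 0.69, adjusted p = 0.519). Chrnb2, the partner subunit in the high-affinity nicotine receptor, averaged 35.5 ± 6.80 in DBA (SD, n = 4) and 32.9 ± 6.99 in C57 (SD, n = 5). It was just below the brightness limit and was not tested, while Chrm4 was just above the limit.

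The muscarinic receptor gene Chrm4 had the smallest p of the 20 sets. It entered the test only through C57, the strain in which it read higher, so its difference supports nothing by itself. It encodes an inhibitory receptor that is abundant in striatum, where it opposes signalling by excitatory dopamine receptors. Its set 101821_at read 33.3, 23.8, 22.6 and 23.6 in DBA animals 1 to 4, and 83.6, 80.7, 82.0, 25.2 and 45.0 in C57 animals 1 to 5. All DBA animals lay below 35.4, as did C57 animal 4, while C57 animals 1, 2 and 3 lay close to each other and above 80. The geometric means were 25.5 in DBA and 57.5 in C57, and the log2 difference was -1.17 ± 0.35 (95% interval -1.96 to -0.39). The unadjusted p was 0.00779 and the adjusted p 0.158. Since the DBA values were all below the limit, the size of the difference is uncertain. Without C57 animal 4, the C57 animal at the DBA level, the log2 difference was -1.47 and the adjusted p 0.0116, and under the other settings in which it was tested, or with any other animal left out, the adjusted p lay between 0.110 and 0.336. Chrm1, the excitatory muscarinic receptor of cortex and hippocampus, overlapped between the strains. It read 324, 358, 394 and 339 in DBA animals 1 to 4, and 495, 341, 429, 401 and 322 in C57 animals 1 to 5 (-0.15 ± 0.14, adjusted p = 0.762).

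How much a transcript varied between animals of a strain differed from gene to gene. The SD of log2 intensity within strain, pooled over both strains, was set against that of probe sets whose mean level lay within 0.5 of it on the log2 scale. Slc6a4 at 99040_at had an SD of 0.85, and 2.28% of 1491 sets of like level had a larger one. The SD of Slc6a2 at 99408_at was also 0.85 (5.32% of like sets larger), but 1.27 among DBA and 0.26 among C57 animals. The second sets stood apart less, with 22.3% of like sets larger for Slc6a4 at 161695_f_at and 42.6% for Slc6a2 at 99409_at. Ddc had an SD of 0.38 (7.35% larger). At the other end, Htr1a had an SD of 0.14, and 98.0% of like sets varied more. Chrm4 had an SD of 0.60, close to the median of 0.59 for its level. These shares describe the sets and were not tested.

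**Figure D3:**
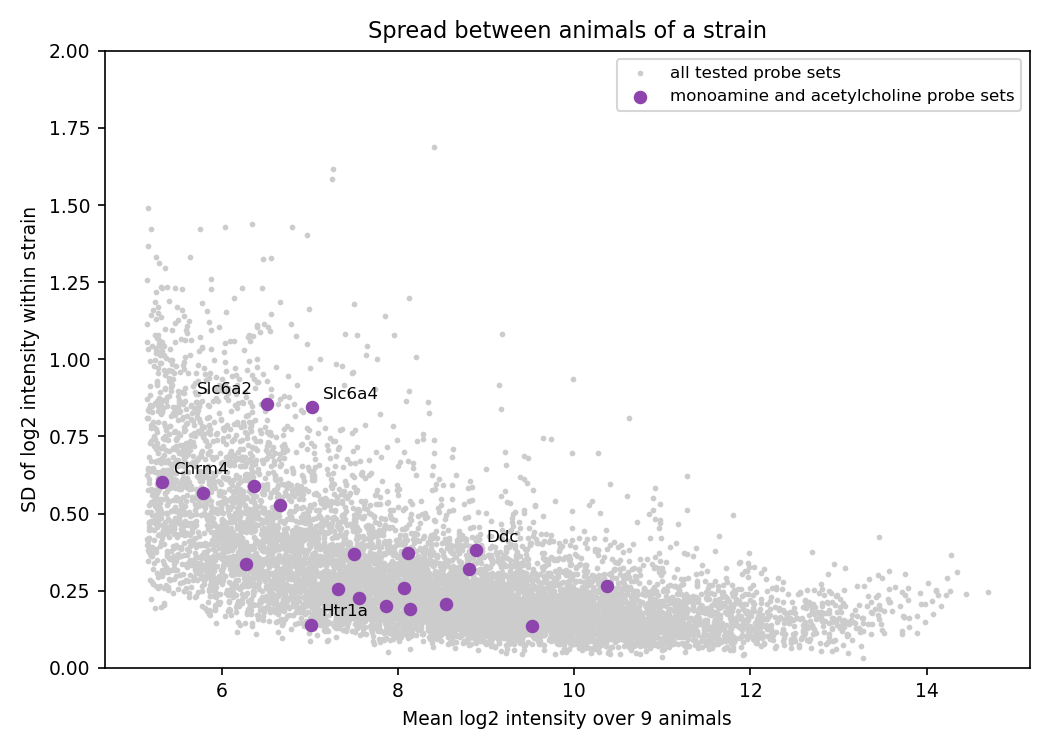
SD of log2 intensity within strain against the mean log2 intensity over 9 animals, for all 9316 tested probe sets (grey) and the 20 monoamine and acetylcholine sets (purple). One set each of Slc6a4 (99040_at) and Slc6a2 (99408_at) and that of Ddc lie near the upper edge for their level and Htr1a near the lower edge, while the second sets of Slc6a4 and Slc6a2 do not.

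Covariation across animals was measured on log2 intensities after the strain mean was subtracted, with animals permuted within strain (exact permutation test, 2-sided, 2880 permutations). Th is needed for dopamine and noradrenaline but not for serotonin, whereas Ddc serves all of these. Of the pairs chosen by name, 2 had both genes tested. Th and Slc6a3 had r = 0.12 (exact permutation p = 0.706) and rho = 0.05 (p = 0.892) over 9 animals, and r = 0.22 without the 2 animals farthest from the median of Th. Th and Ddc had r = 0.05 (exact permutation p = 0.883) and rho = 0 (p = 1), and r = 0.16 without those 2 animals. Both adjusted p-values over the pairs below were 0.965 by r.

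Ddc and Slc6a4 at 99040_at had the same 3 animals lowest. This pair was picked out after its values were seen, and its difference from the Th pairs was not tested. DBA animal 3 and C57 animals 1 and 2 had the lowest values of both genes, 388, 313 and 359 for Ddc and 56.0, 83.2 and 56.3 for Slc6a4 at 99040_at. C57 animal 3 had the highest of both (656 and 213). By Slc6a4 the animals fell into 3 low ones, at 83.2 or less, and 6 high ones, at 163 or more, so no correlation over all 9 animals is given. Among the 6 high animals the order of Ddc and of Slc6a4 was the same, and among the 3 low animals it was reversed. This is a description, since the pair was picked for its values, and it did not pass over the pairs below. The other Slc6a4 set did not share the order, since DBA animal 3 read 92.8 there and DBA animal 1 was the lowest.

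All 153 pairs among the 18 tested genes, by the brightest set of each, were then computed in the same way. At an unadjusted p under 0.05, 14 pairs passed, and 0 passed after Benjamini-Hochberg adjustment over the 153 pairs. The share among pairs of all tested sets was not computed. The smallest adjusted p was 0.379, which Ddc with Slc6a4, Drd2 with Htr2c, Htr5a with Htr7 and several pairs of Chrm4 shared. For Drd2 and Htr2c the correlation was negative (r = -0.82, exact permutation p = 0.00556; rho = -0.77, p = 0.0281; adjusted p = 0.379 by r), with r = -0.88 without DBA animal 1 and C57 animal 3. This pair, 1 of the 14, was not among those chosen by name. DBA animal 1 had the lowest Drd2 and the highest Htr2c of all animals. For Chrm4, whose C57 animals fell into separate levels, no correlation is given.

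**Figure D4:**
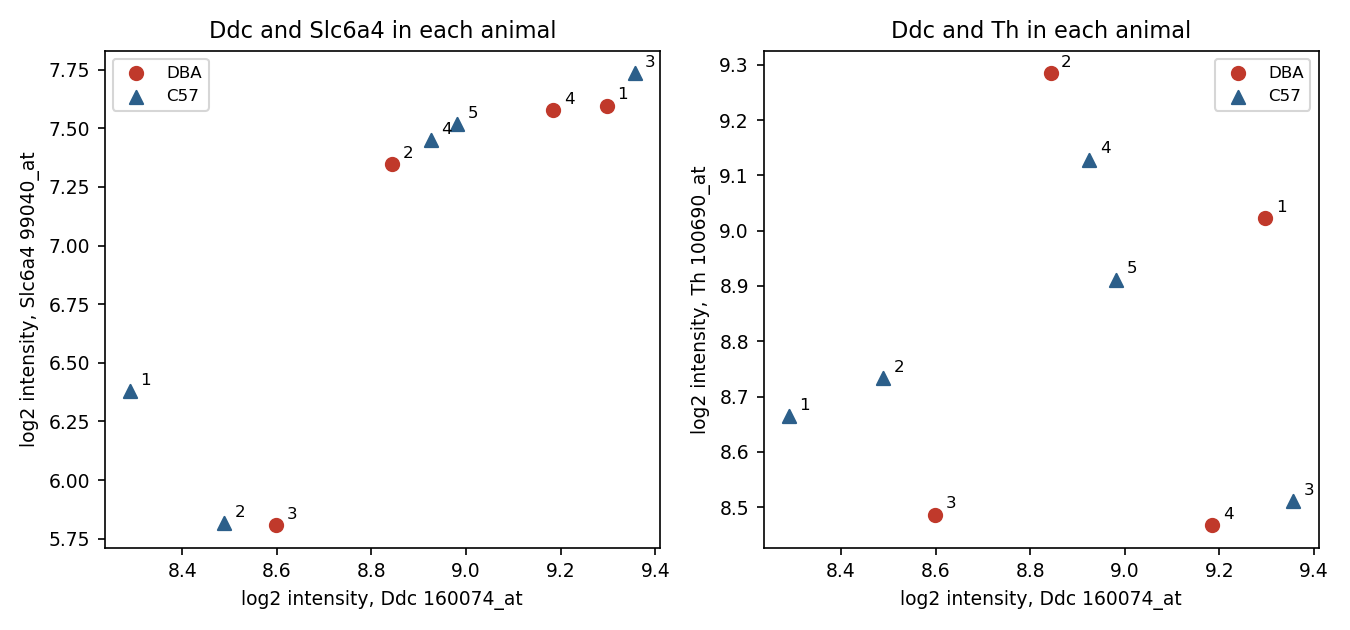
Log2 intensity of Slc6a4 at 99040_at (left) and of Th (right) against that of Ddc, with 1 point per animal, DBA as circles and C57 as triangles, numbered as in the titles. DBA animal 3 and C57 animals 1 and 2 are lowest for both Ddc and Slc6a4. Among these 3 low animals the order of the 2 genes is reversed, and among the other 6 animals it is the same. Th does not follow the order of Ddc (r = 0.05).

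The array controls give 2 ratios of RNA quality for these animals. Signal of the Gapdh control at its 3' end relative to its 5' end, as a log2 ratio, was -0.44 in DBA animal 3 and -0.34 to -0.32 on the remaining DBA arrays. In C57 it was -0.29 and -0.25 in animals 1 and 2, and -0.23 to -0.19 in animals 3 to 5. By Gapdh the low animals for Ddc and Slc6a4 were thus the lowest of their strain. By Actb C57 animal 1 was the lowest of its strain, while DBA animal 3 and C57 animal 2 were not. The Actb ratio was 0.53 in DBA animal 3 and 0.52 to 0.66 in the other DBA animals. It was 0.50 and 0.70 in C57 animals 1 and 2 and 0.61 to 0.91 in animals 3 to 5. Every DBA array had a lower Gapdh ratio than every C57 array, so this ratio cannot be told apart from strain. By Actb the strains overlapped. The part of RNA quality in the strain differences and in the Ddc and Slc6a4 values was not tested. Hindbrain and spinal cord markers, the Hox genes, had a summed intensity of 1888 to 3375 in DBA and 1809 to 2726 in C57. Of their 13 tested sets 0 passed, with a median log2 difference of 0.27. At an unadjusted p under 0.05 there was 1, Hoxc5 (1.23 ± 0.55). The part of this tissue in the results was not tested.

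Promoter windows are shown for Slc6a4, Ddc and Th, the genes plotted against each other by animal. They are the RefSeq windows of build GRCm38.p6, a C57BL/6J assembly, from 250 bases before to 50 bases after an annotated start. Capitals mark matches, on either strand, to the cyclic AMP response element TGACGTCA, the TATA element TATAAA or the GATA factor element AGATAA.
Slc6a4, chr11:76998347-76998646, plus strand: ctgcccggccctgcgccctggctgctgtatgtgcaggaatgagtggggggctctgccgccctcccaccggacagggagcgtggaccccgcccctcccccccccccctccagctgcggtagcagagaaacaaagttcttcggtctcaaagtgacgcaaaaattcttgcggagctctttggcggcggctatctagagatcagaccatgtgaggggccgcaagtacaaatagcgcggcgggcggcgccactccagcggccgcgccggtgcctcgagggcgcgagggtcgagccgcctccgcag
Ddc, chr11:11890359-11890658, minus strand: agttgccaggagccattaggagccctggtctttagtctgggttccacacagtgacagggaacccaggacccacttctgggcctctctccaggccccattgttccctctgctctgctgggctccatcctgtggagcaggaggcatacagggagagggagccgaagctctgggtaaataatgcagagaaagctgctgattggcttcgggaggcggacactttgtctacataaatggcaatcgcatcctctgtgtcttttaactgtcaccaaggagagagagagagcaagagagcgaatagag
Ddc, chr11:11898095-11898394, minus strand: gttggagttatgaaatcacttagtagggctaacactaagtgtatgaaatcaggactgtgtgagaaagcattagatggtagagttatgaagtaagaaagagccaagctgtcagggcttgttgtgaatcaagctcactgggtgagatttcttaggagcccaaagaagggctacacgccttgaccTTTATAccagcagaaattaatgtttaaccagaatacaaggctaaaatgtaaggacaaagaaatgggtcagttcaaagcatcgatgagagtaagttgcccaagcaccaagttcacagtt
Th, chr7:142899946-142900245, minus strand: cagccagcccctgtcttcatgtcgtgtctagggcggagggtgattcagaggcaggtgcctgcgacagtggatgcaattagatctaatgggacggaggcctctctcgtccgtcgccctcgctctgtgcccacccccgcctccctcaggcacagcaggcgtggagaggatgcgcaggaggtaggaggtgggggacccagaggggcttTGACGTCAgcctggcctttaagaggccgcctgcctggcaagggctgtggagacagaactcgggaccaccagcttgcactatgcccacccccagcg
The response element was found in the Th window and in 1.79% of 32851 windows in the table. The TATA element was found in the upstream Ddc window and in 13.6% of windows. The GATA element was in none of these 4 windows and in 11.2% of the table. The windows of Slc6a4 and Ddc shared no match among the letters searched. At these shares a shared match was unlikely in any pair of windows, so its lack says nothing about this pair.

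Other genes of the same pathways gave the same count. Of the enzymes and carriers around monoamines, 0 of 14 tested sets of 10 genes passed (median log2 difference -0.03), and 2 had an unadjusted p under 0.05, near the 2.50% and 12.2% of all tested sets. The smallest p was that of Aldh2 at 96057_at, an aldehyde dehydrogenase that acts after monoamine oxidase (0.32 ± 0.11, adjusted p = 0.246). Its sets 96058_s_at and 161997_f_at differed by 0.10 ± 0.10 and -0.13 ± 0.13. The second was Hdc, which makes histamine (-0.59 ± 0.24, adjusted p = 0.341). Of other aminergic receptors 0 of 8 sets passed (median -0.04), with Hrh1, a histamine receptor, first at -0.27 ± 0.16 (adjusted p = 0.590). Of other cholinergic genes 0 of 7 sets passed (median 0.08), with Chrna6, a nicotinic subunit of dopamine neurons, first at 0.19 ± 0.11 (adjusted p = 0.564).

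Among genes of the striatal response to dopamine, 0 of 8 sets passed (median 0.08). Penk, the enkephalin precursor of striatal neurons that carry Drd2, had the smallest p at 94516_f_at (-0.17 ± 0.12, adjusted p = 0.650). The difference at the other tested Penk set, 94517_r_at, was 0.29 ± 0.34. Transcription factors of monoamine and cholinergic neurons had 0 of 8 sets past the threshold (median -0.04), and 1 at an unadjusted p under 0.05. This was Gata3, needed for the development of serotonin neurons, which averaged 67.7 ± 12.1 in DBA (SD, n = 4) and 52.0 ± 9.40 in C57 (SD, n = 5), with a log2 difference of 0.38 ± 0.16 (adjusted p = 0.382). In all 5 lists of related genes the median lay within 0.1 of that of all tested sets.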

How the data were processed

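Whole brain RNA was hybridised to 9 arrays, 4 DBA and 5 C57, grouped by their titles. Per the labels' protocol, the labelling of each sample started from 5 ug of RNA. The deposited values are intensities on a linear scale. After trimming 2% at each end, array means were all 500.3, so the deposited intensities had been scaled. The sources used here do not name the software, the probe set summary or the background method, and no detection call was used. The 18 arrays with a letter in the title were not used.

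Of 12488 probe sets, 66 were controls. A platform annotation gave 1 symbol to 10855, several to 396 and none to 1237, and symbols were checked against the RefSeq table of GRCm38.p6. A floor of 1.70 (1st percentile of values above 0) raised 0.978% of intensities, log2 was taken, and the dimmest 25% were left out. A 2-sided limma test (lmFit, eBayes; version 3.58.1, R 4.3.3) compared the strains, with Benjamini-Hochberg adjustment. This fit was tested on simulated data with planted changes of 2-fold or more, so smaller differences, as most of those here were, were not covered. The number of arrays limits the precision.

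Members and lists were chosen with earlier results of these data known. Every member was described. Values by animal were given for members past the threshold or with an unadjusted p under 0.05, for the brightest set of each role, and where sets of a gene disagreed in direction at an unadjusted p under 0.05. Further members were given by animal after their values were seen. From each related list the gene with the smallest p was named, and Hdc was added after its values were seen. Of 9 pairs named for covariation, 2 had both genes tested. Numbers in the titles are shared by the strains, and the labels state no pairing of animals. Alternatives were other scalings, floors, filters, a variance trend, the number as a block, a threshold of 0.01, and the omission of 1 animal at a time. The block left out C57 animal 5, since no DBA animal had its number. Figures were drawn with matplotlib 3.10.9.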

Additional observations from a re-analysis of the deposited data

Results flagged for a closer look

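Within each strain, an animal was picked out when its gap to the nearest other animal was an unusually large share of the whole range of log2 values (Dixon's criterion). Of 54 groups (27 probe sets in 2 strains) 5 had such an animal. For normally distributed values the criterion picks about 1 in 20. The share over all probe sets was not computed, so the count is no result about these genes. The serotonin transporter set 99040_at read 56.0 in DBA animal 3, against 163 to 194 in the other DBA animals (gap over range 0.861). Drd2 read 209 in DBA animal 1, against 294 to 308 (0.879). Chrm4 read 33.3 in DBA animal 1, against 22.6 to 23.8 (0.867), all below the brightness limit. At sets too dim to be tested, Maoa 161714_f_at read 2.5 in DBA animal 3, against 8.2 to 9.9 (0.863), and Tph1 99972_at read 12.4 in C57 animal 5, against 3.0 to 4.5 (0.714).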

How the results depend on the processing

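The count of monoamine and acetylcholine sets past the threshold was 0 under every scaling, floor, filter and variance model tried, and 0 to 1 with 1 animal left out. The call was Chrm4 without C57 animal 4 (-1.47, adjusted p = 0.0116), which removes the 1 C57 animal at the DBA level from a set whose DBA values all lay below the brightness limit, so it supports nothing. The 5 related lists stayed at 0 throughout. Over all probe sets, 83 were higher and 150 lower in DBA. With the number in the title as a replicate block, which left out C57 animal 5, these counts were 26 and 47. At an adjusted p under 0.01 they were 51 and 99, and with 1 animal left out they were 63 to 82 and 122 to 149. Deviations of animals with the same number correlated at -0.17 to -0.01. Animals of different number were not compared, so whether a number marks anything shared between strains was not tested. The block called 0 member sets. Differences near 0 changed sign. For Htr1b the log2 difference was -0.0022 with arrays centred on their median, -0.0089 with quantile normalization and -0.19 with the replicate block. The block value equals that with C57 animal 5 left out. With 1 animal left out, log2 differences ran from -0.13 to 0.14 for Th, -0.52 to 0.49 for Slc6a2 at 99408_at, -0.31 to 0.11 for Slc6a2 at 99409_at, -0.19 to 0.53 for Slc6a4 at 99040_at, -0.023 to 0.51 for Slc6a4 at 161695_f_at, -0.12 to 0.066 for Drd2, -0.099 to 0.063 for Drd4, -0.19 to 0.12 for Htr1b and -0.16 to 0.083 for Htr5a. In the same way r ran from -0.075 to 0.36 for Th and Slc6a3 and from -0.18 to 0.38 for Th and Ddc, and the cause of these changes was not tested. With the dimmest 50% left out, 11 member sets could be tested.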
